A study of Mus musculus with 8 samples.

Results

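Potassium and sodium channel genes were followed across 4 groups of mouse bone marrow cells on 1-colour expression arrays. The members are the 109 genes whose probe names on the array begin with Kcn, or with Scn and a digit. They held 166 of the 55681 probes that are not controls. A probe was used when the scanner marked it as well above background on each of the 2 arrays of some group: 98 channel probes for 75 genes passed this filter, of 39411 probes in all, and the results concern those 75 genes. By role they were 26 voltage-gated potassium channels, 6 calcium- or sodium-activated potassium channels, 10 inward rectifiers, 11 two-pore potassium channels, 10 partner subunits and regulators of potassium channels, 7 pore-forming sodium channel subunits, 4 sodium channel beta subunits and the noncoding RNA Kcnq1ot1.

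The 4 groups had 2 arrays each. Bone marrow was cultured for 7 days with M-CSF, a growth factor that turns it into macrophages, which then received interleukin-4 (IL-4), the usual stimulus of alternative activation, or lipopolysaccharide (LPS), a bacterial product that activates macrophages classically. Both stimuli lasted 24 hours. The colony cells were bone marrow cells grown over endothelial cells, also for 7 days, in stem cell medium. The control macrophages had M-CSF and control medium only. All mice, those of the control group included, carried the DsRed transgene Tg(CAG-DsRed*MST)1Nagy on a B6 background, with the CAG promoter driving a red fluorescent protein. Whether 2 samples of a group are separate animals or cultures is not given in the labels, so p-values measure only the spread between these samples, which may be technical. The labels also leave unsaid whether endothelial cells were removed from the colony cells, and the effects of the layer beneath the colony cells and of their medium cannot be told apart.

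Potassium channels let potassium ions leave or enter cells and hold the membrane potential negative. In macrophages this potential steers calcium entry, migration and phagocytosis, and loss of potassium from the cell is a trigger of the NLRP3 inflammasome. Voltage-gated sodium channels are best known for the upstroke of action potentials in neurons and muscle, and their beta subunits also act as adhesion molecules.

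LPS replicate 2 stood apart: 72.2% of its spots were well above background, against 62.4% to 67.5% on the other 7 arrays, and it held 105 uneven spots, against at most 5 on any other array. Levels below are log2 signals relative to the 75th percentile of their array, given for replicate 1 and then replicate 2. They compare groups within 1 gene, not genes with each other, because probes differ in brightness. Values near -8 lie at the background. All 8 macrophage markers listed were well above background in every group, but their summed signal, in units of the 75th percentile, was 1481 to 1530 with IL-4, 1597 to 1843 with LPS and 142 to 145 in colony cells, against 2033 to 2045 in control. The leukocyte list, 7 of 7 above background everywhere, summed to 67.6 to 69.4 in colony cells, against 499 to 507 in control. Of the mesothelial list, 8 of 8 genes were well above background in colony cells, with a sum of 393 to 408, against 1 of 8 in control, with a sum of 0.0575 to 0.0777. The fibroblast list (7 of 7 in colony cells, 3 of 7 in control) summed to 244 to 249 in colony cells, against 0.516 to 0.634 in control. The smooth muscle list (5 of 5 in colony cells, 3 of 5 in control) summed to 349 to 368 in colony cells, against 4.84 to 6.19 in control. The mast cell list (7 of 7 in colony cells, 2 of 7 in control) summed to 6.56 to 6.58 in colony cells, against 0.573 to 0.741 in control. With LPS, 2 of 8 mesothelial genes (sum 0.209 to 0.282) and 5 of 7 fibroblast genes (sum 1.08 to 1.21) were well above background. The smooth muscle sum was 9.98 to 10.6 with LPS, and the mast cell sum was 0.33 to 0.48. Of the endothelial list, 6 of 9 genes were well above background in colony cells and 5 of 9 in control, with a sum of 20.7 to 20.8 in colony cells, against 33.5 to 38.2 in control. In colony cells the endothelial Cdh5, Tie1 and Emcn were not well above background. Esam (mean level 2.80 in colony cells, against -7.38 in control) and Tek (-4.0 in colony cells, against -6.50 in control) were well above background in colony cells and not in control. Of the 7 endothelial genes tested, 2 were called higher and 4 lower in colony cells than in control, Vwf (-4.31 ± 0.09) among the lower. The striated muscle list (4 of 6 well above background in colony cells, 3 of 6 in control) summed to 9.55 to 9.86 in colony cells, against 0.167 to 0.193 in control. Of the neuronal list, 3 of 7 genes were well above background in colony cells and 2 of 7 in control, with a sum of 20.2 to 20.8 in colony cells, against 9.07 to 10.6 in control. Tubb3 (log2 fold change 4.87 ± 0.23) and Snap25 (0.98 ± 0.15) were higher in colony cells, Map2 was at a mean level of -0.92 in colony cells, against -7.98 in control, where it was at background, and Rbfox3, Stmn2 and Nefl were not well above background there. In such bulk samples, fewer cells of a type and less RNA per cell cannot be told apart.

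A pair of members with very bright probes, Kcna4, a rapidly inactivating voltage-gated potassium channel, and Scn8a, a sodium channel of neurons, need their probe sequences read first. The probe that represents each holds a run of alternating G and T, in capitals below. Each line gives 30 bases of a 60-base probe from the array files, 5′ to 3′, and the other 2 Scn8a probes and the probe that represents Scn3a are set beside them because they hold no such run.
Kcna4 (chr2:107138207-107138266, mm9): tttgtgtaTGTGTGTGTGTGTctgtgtgtg
Scn8a, representing probe (chr15:100875702-100875761, mm9): acatgtaTGTGTGTGTGTGTGTGaagaatg
Scn8a, other probe (chr15:100848863-100848922, mm9): ttcatcctggagatgttgctcaaatggaca
Scn8a, other probe (chr15:100766904-100766963, mm9): acagcaagcccaagccaaacagtgacctgg
Scn3a (chr2:65296320-65296379, mm9): gtaacaccctgctacactatctactgagaa

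Kcna4 read 5.42 and 5.72 with IL-4, 7.84 and 8.29 with LPS and 2.80 and 2.82 in colony cells, against 4.99 and 5.02 in control. Scn8a read 5.35 and 5.68 with IL-4, 7.40 and 7.80 with LPS and 2.63 and 2.60 in colony cells, against 5.13 and 5.09 in control. Both were highest with LPS and lowest in colony cells, with no overlap of these groups with control. The fitted log2 fold changes of Kcna4 were 3.06 ± 0.17 with LPS and -2.19 ± 0.17 in colony cells, each against control, where ± is the standard error with 2 arrays per group. Those of Scn8a were 2.49 ± 0.17 and -2.49 ± 0.17.

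The same pattern appeared on probes of unrelated genes that hold such a run. On the array, 120 probes outside the channel genes hold at least 12 bases of alternating G and T, and all 120 passed the filter on dim probes. With LPS, 119 of the 120 were above both control arrays on both LPS arrays, and their median log2 fold change was 2.05. In colony cells, 119 of the 120 were below both control arrays on both arrays, with a median of -2.22. Their median level was 8.04 and 8.45 on the LPS arrays and 3.73 and 3.77 on the colony cell arrays, against 6.15 and 6.10 on the control arrays. Probes with a run of alternating C and A went the other way: 51 of 60 were below control on both LPS arrays (median log2 fold change -2.80), and 48 of 60 were above control on both colony cell arrays (median 1.12). Of the other Scn8a probes, one was not well above background on any array, and the other read -5.74 and -7.41 with IL-4, -5.47 and -3.89 with LPS and -6.51 and -7.37 in colony cells, against -5.51 and -6.67 in control. On this dim probe LPS replicate 1 (-5.47) lay close to control replicate 1 (-5.51), and LPS replicate 2 is the array that stood apart. The probe's log2 fold changes against control, 1.41 with LPS and -0.85 in colony cells, were not called (limma adjusted p = 0.204 and 0.389). Its change in colony cells against LPS, -2.26, was called, with colony cells at the dim levels of -6.51 and -7.37. Kcna4 has no other probe on the array. How much of the signal of these Kcna4 and Scn8a probes is RNA of their own gene was not tested, and counts below are also given without both genes. The repeat class was examined after the values had been seen, and no other channel probe held a run of 12 bases of either kind.

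**Figure D1:**
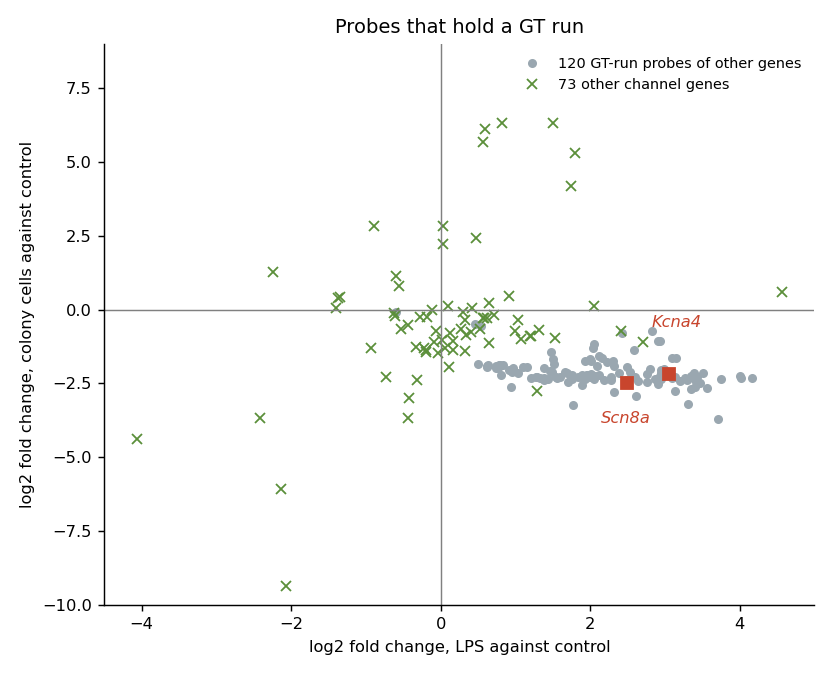
Each point is 1 probe or gene, placed by its log2 fold change with LPS (horizontal axis) and in colony cells (vertical axis), both against the same control arrays. Grey circles are the 120 probes with a GT run from other genes, red squares are Kcna4 and Scn8a, and green crosses are the other 73 channel genes; the red squares lie inside the grey cloud.

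In macrophages given IL-4, the channel gene with the largest change was Scn3a, a pore-forming sodium channel subunit of embryonic and neonatal neurons, at least 186-fold above control. The potassium channel genes Kcnj16, Kcnq1, Kcnn4 and Kcnd3 rose at least 2-fold, and the sodium channel beta subunit gene Scn4b fell. Of the 75 channel genes, 7 rose and 3 fell with limma at an adjusted p under 0.05, or 13.3%, while 19.0% of the 26504 genes tested were called. By direction, 9.87% of all genes rose and 9.18% fell. At least 2-fold, 5 channel genes rose and 1 fell, while 2.17% and 2.23% of all genes did. The median log2 fold change of the channel genes was -0.02, and that of all genes was -0.01. The split of directions was 7 and 5 under the normexp background correction and 7 and 1 under median centring. All genes split into 2727 that rose and 2583 that fell under normexp, and 1411 and 1256 under median centring. Fewer channel genes were called when either IL-4 array was left out.

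Scn3a, here read by its probe at chr2:65296320-65296379 of build mm9, gave 1.51 and 1.51 with IL-4, -7.84 and -7.81 with LPS and -8.18 and -8.24 in colony cells, against -7.06 and -6.73 in control. Only the IL-4 arrays were above background on that probe. All 5 Scn3a probes were well above background on both IL-4 arrays and on both arrays of no other group. The brightest 3 of them read between -0.71 and 1.57 with IL-4, and the dimmer 2 between -4.32 and -3.34. Scn3a passed the filter through IL-4 alone, so no p-value is given for that group. The bound of 186-fold sets the IL-4 mean against a floor for control. On each control array it is the lowest signal well above background or the probe's own, whichever was higher. Bounds of this kind carry no standard error and hold for the background correction used here. The 5 probes differ in brightness, and all have IL-4 as their highest group; the order of the other groups differs between probes.

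**Figure D2:**
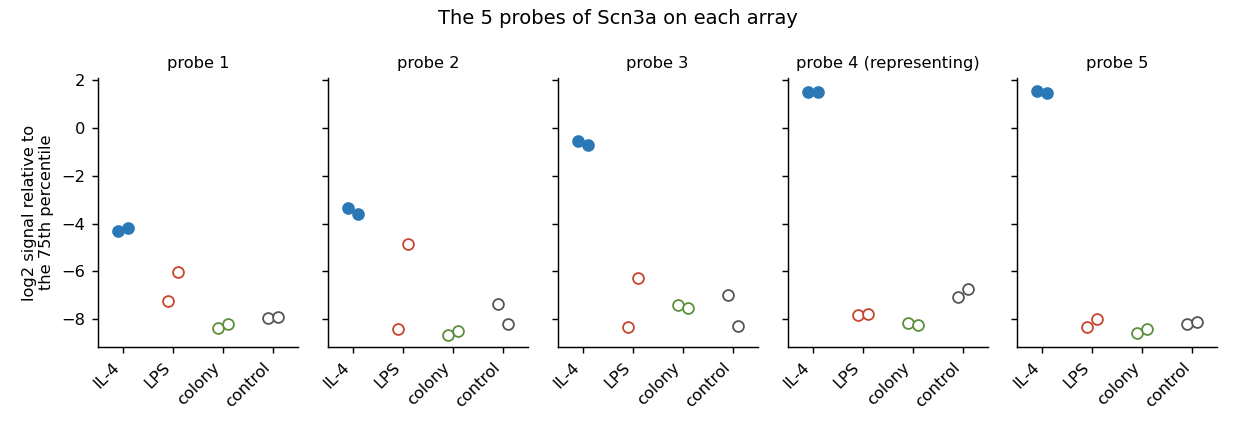
Each panel is 1 of the 5 Scn3a probes, and the vertical axis is the log2 signal relative to the array's 75th percentile on the 2 arrays of each group. Filled points are groups well above background on both arrays; on all 5 probes only the IL-4 points are filled.

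Scn4b, a beta subunit linked to resurgent sodium current, read -3.38 and -3.43 with IL-4, -2.39 and -2.40 with LPS and -4.74 and -4.19 in colony cells, against -2.30 and -2.72 in control. Its change with IL-4 was -0.90 ± 0.22. Scn2b, a further beta subunit, was well above background on both arrays with IL-4 only, at -4.16 and -3.67 with IL-4, -7.29 and -6.72 with LPS and -8.53 and -8.36 in colony cells, against -8.27 and -5.67 in control. Its control arrays lay far apart, and its log2 fold change of 3.06 ± 0.81 against control was not called. Scn2b passed the filter through IL-4 alone, so no p-value is given for that group.

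Among the voltage-gated potassium channels, Kcnd3, an A-type channel of heart and brain, read -1.88 and -1.81 with IL-4, -2.41 and -2.90 with LPS and -3.68 and -4.0 in colony cells, against -3.28 and -3.08 in control. Its change with IL-4 was 1.33 ± 0.20, a call lost without either IL-4 array. Kcnq1, the channel of slow cardiac repolarisation, read -3.32 and -3.09 with IL-4, -8.33 and -6.71 with LPS and -3.99 and -4.03 in colony cells, against -5.05 and -5.50 in control. IL-4 was the highest group and LPS the lowest, with no array well above background with LPS. The change with IL-4 was 2.07 ± 0.51 with an adjusted p of 0.044 (limma), and the call was lost in 9 settings, among them leaving out any 1 of the control or IL-4 arrays and the normexp background correction (0.55). The second Kcnq1 probe overlaps the first and gave the same order of groups. Kcnq3, a neuronal channel, was well above background with IL-4 only, at -5.84 and -5.65 with IL-4, -7.07 and -8.13 with LPS and -8.70 and -8.55 in colony cells, against -6.74 and -8.28 in control, and was not called against control. Kcng2, a silent subunit that modifies other channels, read -6.00 and -5.35 with IL-4, -6.89 and -5.77 with LPS and -7.28 and -7.55 in colony cells, against -5.69 and -6.54 in control and was likewise well above background on both arrays with IL-4 only.

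The calcium-activated channel Kcnn4 (KCa3.1), which is known to drive potassium current in macrophages, read 3.99 and 3.91 with IL-4, 3.89 and 3.80 with LPS and 1.45 and 1.22 in colony cells, against 2.26 and 2.35 in control. It rose with IL-4 (1.64 ± 0.10) and with LPS (1.53 ± 0.10), and the difference of LPS from IL-4, -0.10 ± 0.10, was not called (limma adjusted p = 0.43). Among the inward rectifiers, Kcnj16 (Kir5.1), which forms channels together with Kcnj10 in kidney and glia, read -2.24 and -2.16 with IL-4, -8.34 and -8.03 with LPS and -8.58 and -8.42 in colony cells, against -4.01 and -4.22 in control. It rose with IL-4 (1.92 ± 0.14; limma adjusted p = 0.00088) and was not well above background on any LPS or colony cell array. Its usual partner Kcnj10 (Kir4.1) read 0.26 and 0.31 with IL-4, -0.84 and -0.70 with LPS and -8.53 and -7.58 in colony cells, against 1.22 and 1.38 in control. With IL-4 both Kcnj10 arrays were below both control arrays, but the change of -1.02 ± 0.30 missed the threshold (adjusted p = 0.071, limma).

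Smaller changes were measured for 3 two-pore channels, which carry the background potassium current of resting cells. Kcnk6 (TWIK2), known in mouse macrophages for potassium efflux ahead of the NLRP3 inflammasome, read 4.48 and 4.51 with IL-4, 3.61 and 3.67 with LPS and 0.39 and 0.44 in colony cells, against 4.01 and 4.14 in control. Kcnk13 (THIK-1), known in mouse microglia for background potassium current, read 3.69 and 3.73 with IL-4, 2.71 and 2.75 with LPS and 0.15 and 0.14 in colony cells, against 3.20 and 3.1 in control. Kcnk12, its close relative, read -3.81 and -3.87 with IL-4, -3.69 and -3.58 with LPS and -5.71 and -5.69 in colony cells, against -3.43 and -3.20 in control. Kcnk6 (0.42 ± 0.07) and Kcnk13 (0.56 ± 0.07) rose with IL-4, and Kcnk12 fell (-0.53 ± 0.10). With LPS, Kcnk6 (-0.44 ± 0.07), Kcnk13 (-0.42 ± 0.07) and Kcnk12 (-0.32 ± 0.10) fell. In colony cells all 3 were lower than in control by much more, as given below.

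In macrophages given LPS, the voltage-gated channel genes Kcna3 and Kcna1 and the calcium-activated channel genes Kcnn3 and Kcnn4 rose, and the inward rectifier genes Kcnj16, Kcnj2 and Kcnj10 fell. Of the 75 channel genes, 16 rose and 15 fell (31 called, 41.3%), while 54.7% of all genes tested were called. By direction, 28.9% of all genes rose and 25.8% fell. Without Kcna4 and Scn8a, 14 channel genes rose and 15 fell, and without LPS replicate 2, 14 rose and 13 fell. At least 2-fold, 11 rose and 7 fell, while 12.0% and 10.2% of all genes did. The median log2 fold change of the channel genes was 0.16 and that of all genes 0.07. The split of directions depends on the background correction and scaling, for the channel genes and for all genes. With normexp, 10 channel genes rose and 23 fell, while 6239 of all genes rose and 8445 fell. With median centring the splits were 11 and 17 for channel genes and 4947 and 7464 for all genes. Among the 61 channel genes in the deposited log2 values 11 rose and 16 fell, while 4589 of all genes there rose and 7400 fell. In the main setting 7660 of all genes rose and 6832 fell. The calls include Kcnk5, which was not well above background on any LPS or control array and gets no fold, and Scn3a, whose 5 probes held called changes in both directions while neither group had a Scn3a probe well above background on both of its arrays.

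Kcna3 (Kv1.3), the main voltage-gated potassium channel of lymphocytes and known from activated macrophages, read -3.37 and -3.40 with IL-4, -0.61 and -0.91 with LPS and -4.51 and -4.64 in colony cells, against -3.44 and -3.48 in control. Both LPS arrays lay far above all others, and the log2 fold change was 2.70 ± 0.11 (limma adjusted p = 2.2e-05). Kcna1 (Kv1.1), a channel of axons, was well above background with LPS only, at -6.58 and -8.19 with IL-4, -3.26 and -3.89 with LPS and -6.64 and -8.42 in colony cells, against -8.18 and -8.10 in control. It was at least 5.48-fold higher with LPS than in control. It passed the filter through LPS alone, so no p-value is given for this. Kcnc1 (Kv3.1), a channel of fast-spiking neurons, read -3.49 and -3.70 with IL-4, -4.80 and -4.62 with LPS and -2.87 and -3.01 in colony cells, against -3.44 and -3.28 in control and fell by 1.35 on the log2 scale with LPS. Kcnq1, whose arrays are given above, was at least 1.82-fold lower with LPS than in control, a call lost without control replicate 1.

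Among the ether-a-go-go relatives, Kcnh8 rose with LPS. Kcnh8 read -4.96 and -5.34 with IL-4, -4.11 and -3.73 with LPS and -5.82 and -6.17 in colony cells, against -4.85 and -5.38 in control, with a change of 1.19 ± 0.26 with LPS that was not called under normexp (0.10). Kcnh7 read -5.57 and -7.71 with IL-4, -3.34 and -5.39 with LPS and -7.16 and -7.85 in colony cells, against -7.67 and -5.90 in control and Kcnh6 read -5.75 and -5.69 with IL-4, -5.03 and -4.37 with LPS and -7.26 and -6.34 in colony cells, against -6.28 and -5.54 in control. Neither the log2 fold change of Kcnh7 with LPS (2.42) nor that of Kcnh6 (1.21) was called, and the Kcnh7 arrays of each group lay apart. Kcng4, a silent subunit, read -6.62 and -6.03 with IL-4, -4.61 and -4.33 with LPS and -6.71 and -6.36 in colony cells, against -5.91 and -5.17 in control. Its change of 1.07 ± 0.32 with LPS is a fragile call: it was -0.05 under normexp and was lost in 9 other settings.

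Kcnn3 (SK3), a small-conductance calcium-activated channel, read -3.39 and -2.86 with IL-4, -0.80 and -0.51 with LPS and -2.56 and -2.59 in colony cells, against -2.71 and -2.70 in control. LPS arrays were the highest and the change was 2.05 ± 0.19 (limma adjusted p = 0.00041). Kcnn4 rose as described. Of the 6 calcium- or sodium-activated channel genes these 2 rose and the other 4 were not called, while 28.9% of all genes rose and 25.8% fell.

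Of the 10 inward rectifier genes, 4 fell with LPS and none rose by the test, while 25.8% of all genes fell and 28.9% rose. Kcnj2 (Kir2.1), the classical strong inward rectifier of macrophages and muscle, has its probe at chr11:110936203-110936262 and Kcnj16 at chr11:110889223-110889282, on the same stretch of mm9 chromosome 11. Kcnj2 read -2.16 and -2.24 with IL-4, -4.08 and -4.14 with LPS and -8.28 and -7.80 in colony cells, against -2.17 and -1.78 in control. It fell by 2.14 on the log2 scale with LPS, while its IL-4 arrays overlapped control (-0.23 ± 0.20). Kcnj16 was at least 4.05-fold lower with LPS than in control. Kcnj10 fell by 2.07 with LPS (standard error 0.30). Kcnj4 (Kir2.3), described with the colony cells, fell by 0.90. Kcnj5 (GIRK4), a G protein-gated channel of heart atria, was well above background on both arrays with LPS only, at -5.98 and -5.70 with IL-4, -4.92 and -4.43 with LPS and -5.86 and -6.94 in colony cells, against -5.83 and -5.51 in control, and its change of 1.00 ± 0.38 was not called.

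Other members gave the following values with LPS. The partner subunit gene Kcnab1, described with the colony cells, rose (1.80 ± 0.19). The part of other cell types in this rise was not tested. Kcnmb3, a beta subunit of the large-conductance channel, was well above background on both arrays with LPS only and read -4.10 and -6.18 with IL-4, -5.20 and -4.82 with LPS and -6.52 and -7.51 in colony cells, against -6.35 and -6.29 in control. Its change with LPS was not called against control, and IL-4 replicate 1 lay above both LPS arrays. Kcnq1ot1, the long noncoding RNA antisense to Kcnq1 that silences its imprinted neighbours, read -1.56 and -1.74 with IL-4, -3.04 and -2.76 with LPS and -0.94 and -1.34 in colony cells, against -1.74 and -1.33 in control, with a fall of 1.37 on the log2 scale with LPS. Scn4a (Nav1.4), the sodium channel of skeletal muscle, read -0.86 and -0.68 with IL-4, -0.15 and 0.05 with LPS and -1.46 and -1.40 in colony cells, against -1.11 and -1.05 in control and rose (1.03 ± 0.10). Scn3b, a beta subunit, read -0.85 and -0.92 with IL-4, -1.93 and -1.57 with LPS and -0.57 and -0.04 in colony cells, against -0.23 and -0.45 in control and fell by 1.41 with LPS.

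**Figure D3:**
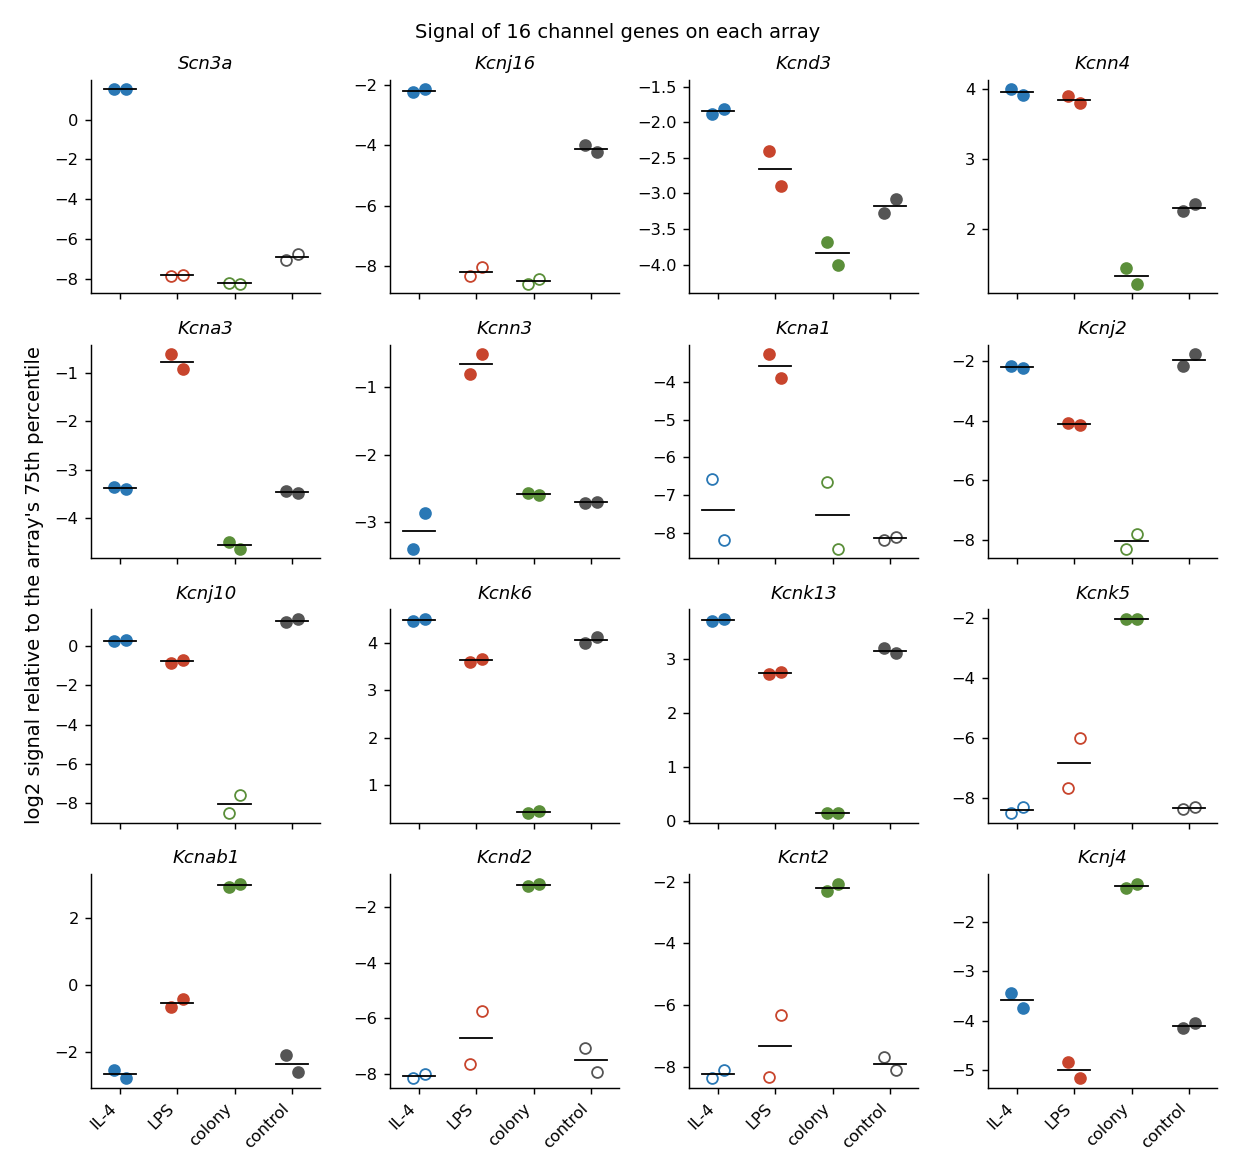
Each panel is 1 gene; the vertical axis is the log2 signal relative to the array's 75th percentile, points are arrays and lines are group means (2 arrays each), with vertical scales that differ between panels. Open points mark groups in which the probe was not well above background on both arrays; Scn3a is filled for IL-4 only, Kcna1 for LPS only, and Kcnd2, Kcnk5 and Kcnt2 for colony cells only.

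LPS and IL-4 macrophages were also set against each other. Of the 75 channel genes, 19 were higher and 15 lower with LPS than with IL-4 (34 called, 45.3%), while 52.6% of all genes tested were called. Of all genes 26.8% were higher and 25.8% lower. The split of the channel genes was 12 and 17 under normexp and in the deposited log2 values. It was 14 and 17 under median centring or quantile normalization. All genes split 5881 and 6783 under normexp, 4435 and 7813 under median centring and 6114 and 7866 under quantile normalization. In the deposited log2 values all genes split 4029 and 7889. Without LPS replicate 2, more of the called channel genes were higher than lower. The inward rectifier Kcnj16 was at least 15.3-fold lower with LPS, and Kcnq1 at least 7.65-fold lower. Kcna3 (2.62 ± 0.11), Kcnn3 (2.47 ± 0.19) and Kcnab1 (2.11 ± 0.19) were higher with LPS. Of the beta subunit genes of sodium channels, Scn4b (1.01 ± 0.22) was higher with LPS, and Scn3b (-0.86 ± 0.21) and Scn2b (at least 4.67-fold) were lower. The Scn2b call was lost without any 1 of the LPS or IL-4 arrays, and the Scn4b call without IL-4 replicate 2. Kcnj10 was lower with LPS (-1.05 ± 0.30), a call lost without any 1 of the 6 macrophage arrays. Kcnj5 (at least 2.24-fold higher) and Kcnq3 (at least 1.31-fold lower) were called too, and lost in 11 and 7 settings.

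In colony cells, several channel genes were present that were not well above background in any macrophage group, among them Kcnd2, Kcnk5 and Kcnt2, and the partner subunit gene Kcnab1 was far higher than in control. The inward rectifier genes Kcnj10, Kcnj2 and Kcnj16 and the two-pore channel genes Kcnk6, Kcnk13 and Kcnk12 were lower. Of the 75 channel genes, 12 were higher and 33 lower (45 called, 60%), while 71.4% of all genes tested were called. By direction, 24.7% of all genes were higher and 46.7% lower. At least 2-fold, 11 channel genes were higher and 22 lower, while 16.3% and 21.9% of all genes were, and without Kcna4 and Scn8a 12 were higher and 31 lower. The median log2 fold change was -0.66 for the channel genes and -0.35 for all genes. Under normexp 8 were higher and 53 lower, so that 61 of 75 channel genes were called, against 21424 of all 26504 genes. These changes moved together with the marker lists given above, and the part of other cell types in them was not tested.

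Among the voltage-gated channels, Kcnd2 (Kv4.2), an A-type channel of neurons and heart, read -8.17 and -8.02 with IL-4, -7.65 and -5.75 with LPS and -1.22 and -1.16 in colony cells, against -7.09 and -7.95 in control. Its level in colony cells exceeded control at least 28.7-fold. It passed the filter through colony cells alone, so no p-value is given for this. Kcnh2 (the ERG channel, which repolarises the heart) read -5.95 and -6.13 with IL-4, -5.37 and -4.97 with LPS and -3.12 and -3.33 in colony cells, against -5.55 and -5.73 in control, with a log2 fold change of 2.41 ± 0.17. Kcnq5, a channel of neurons and smooth muscle, was just above background in colony cells, at -8.09 and -8.00 with IL-4, -8.16 and -7.80 with LPS and -5.72 and -5.85 in colony cells, against -8.06 and -7.96 in control. Its bound was 1.18-fold, and under normexp its change was -0.41.

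Other voltage-gated genes were lower in colony cells. Kcna7 read 0.61 and 0.75 with IL-4, 0.75 and 0.72 with LPS and -0.28 and -0.31 in colony cells, against 0.74 and 0.69 in control and differed by -1.01 ± 0.08. Kcnh4 read 0.29 and 0.55 with IL-4, 0.74 and 0.82 with LPS and -0.50 and -0.25 in colony cells, against 0.37 and 0.39 in control and differed by -0.76 ± 0.12. Kcna3 was lower, with a log2 fold change of -1.11 ± 0.11. Kcnd1 (Kv4.1) read 2.16 and 2.21 with IL-4, 2.27 and 2.32 with LPS and 1.06 and 1.07 in colony cells, against 1.95 and 2.33 in control on its brightest probe, with a change of -1.07 ± 0.13. Its other probes disagree with that: they gave changes of up to 3.03, and the mean of its probes was higher in colony cells (0.71), so its direction depends on the probe. The brightest Scn2a probe did not change in colony cells (0.06 ± 0.10), while the other 2 Scn2a probes were well above background in colony cells only, at -5.81 and -5.66 on the first and at -4.80 and -4.73 on the second.

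The sodium-activated channel Kcnt2 (Slick) read -8.36 and -8.10 with IL-4, -8.32 and -6.33 with LPS and -2.32 and -2.08 in colony cells, against -7.68 and -8.09 in control and exceeded control at least 14.2-fold in colony cells. Its relative Kcnt1 (Slack) read -4.96 and -4.61 with IL-4, -5.43 and -4.94 with LPS and -6.45 and -5.80 in colony cells, against -4.88 and -4.83 in control and was lower (-1.27 ± 0.27). Kcnu1 (Slo3), the pH-sensitive channel of mouse sperm, read -8.42 and -8.23 with IL-4, -8.38 and -4.53 with LPS and -4.07 and -3.96 in colony cells, against -8.24 and -8.16 in control. Colony cells exceeded control at least 4.05-fold, a call lost without any 1 of the control or colony cell arrays and under normexp. On LPS replicate 2, which stood apart as described, its signal was raised as well, at -4.53.

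Of the 10 inward rectifier genes, 6 were lower and 1 was higher in colony cells, while 46.7% of all genes tested were lower and 24.7% higher. Kcnj10 was at least 197-fold lower in colony cells than in control (limma adjusted p = 3.5e-06), Kcnj2 at least 20.4-fold and Kcnj16 at least 4.6-fold. Kcnj15 (Kir4.2) read -3.92 and -3.48 with IL-4, -3.23 and -3.31 with LPS and -5.05 and -4.95 in colony cells, against -3.47 and -3.72 in control and was lower, with a log2 fold change of -1.40 ± 0.17. Kcnj12 (Kir2.2) read -5.69 and -5.58 with IL-4, -5.65 and -4.95 with LPS and -6.77 and -6.21 in colony cells, against -5.46 and -5.82 in control, at least 1.58-fold lower. Kcnj9 (GIRK3) read -5.66 and -5.53 with IL-4, -8.21 and -4.40 with LPS and -8.43 and -6.72 in colony cells, against -4.16 and -3.62 in control, and its call, at least 5.39-fold lower, was lost in 7 settings. Kcnj4, a neuronal and cardiac strong rectifier, was the higher one and read -3.44 and -3.73 with IL-4, -4.84 and -5.16 with LPS and -1.32 and -1.23 in colony cells, against -4.15 and -4.05 in control. Its log2 fold change was 2.83 ± 0.15 (limma adjusted p = 2.3e-05).

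The two-pore channels split. Kcnk5 (TASK-2), an alkaline-activated channel of kidney epithelium, read -8.53 and -8.33 with IL-4, -7.67 and -6.02 with LPS and -2.04 and -2.03 in colony cells, against -8.39 and -8.30 in control and exceeded control at least 15.9-fold in colony cells. Kcnk2 (TREK-1), a mechanosensitive channel, read -8.24 and -8.05 with IL-4, -8.20 and -7.65 with LPS and -5.11 and -5.12 in colony cells, against -7.92 and -8.00 in control, at least 1.89-fold higher, with a change of -0.24 under normexp. Kcnk6 (-3.66 ± 0.07), Kcnk13 (-3.0 ± 0.07) and Kcnk12 (-2.39 ± 0.10) were lower in colony cells, with no overlap between arrays. Kcnk7, a relative with no known current of its own, read -5.30 and -4.80 with IL-4, -4.52 and -4.69 with LPS and -6.12 and -6.15 in colony cells, against -4.86 and -4.68 in control and was lower, with a log2 fold change of -1.37 ± 0.18.

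Partner subunits also moved both ways. Kcnab1, a beta subunit that speeds inactivation of Kv1 channels, read -2.52 and -2.78 with IL-4, -0.67 and -0.42 with LPS and 2.92 and 3.0 in colony cells, against -2.10 and -2.60 in control. Colony cells lay above every other group and LPS above control, with a log2 fold change in colony cells of 5.31 ± 0.19 (limma adjusted p = 5.5e-06). Kcnab2 read -3.31 and -3.68 with IL-4, -2.69 and -2.98 with LPS and -4.48 and -4.77 in colony cells, against -3.61 and -3.35 in control and was lower (-1.15 ± 0.19). Kcnab3 read -5.23 and -6.43 with IL-4, -5.37 and -5.18 with LPS and -3.87 and -3.96 in colony cells, against -4.53 and -4.92 in control and was not called against control. Kcnip3 (KChIP3), a calcium sensor of Kv4 channels, read -3.06 and -3.21 with IL-4, -3.28 and -3.53 with LPS and -1.63 and -1.72 in colony cells, against -2.67 and -2.95 in control and was higher (1.13 ± 0.14) on its brightest probe. The other Kcnip3 probe, detected in all 4 groups, gave 0.15 in colony cells against control and was not called (limma adjusted p = 0.548). The rise of Kcnip3 was thus called on 1 of its 2 probes.

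Kcnip2 (KChIP2), which Kv4 channels need in the heart, read -3.31 and -3.62 with IL-4, -3.14 and -0.80 with LPS and -5.96 and -6.09 in colony cells, against -3.34 and -3.19 in control. Its LPS arrays lay far apart, and its lower level in colony cells (-2.76 ± 0.71) was lost as a call without any 1 of the control or colony cell arrays. Kcne3, a single-pass partner of Kcnq1, read -2.59 and -2.79 with IL-4, -2.97 and -3.28 with LPS and -4.64 and -4.74 in colony cells, against -2.23 and -2.58 in control and was lower, with a log2 fold change of -2.29 ± 0.17. Kcnrg, a regulator of Kv channels, read -4.46 and -4.31 with IL-4, -4.97 and -3.71 with LPS and -5.63 and -5.41 in colony cells, against -4.56 and -3.72 in control, and its call (-1.38 ± 0.46) was lost in 6 settings. Among the sodium channel beta subunits, Scn4b (-1.96 ± 0.22) was lower in colony cells and Scn3b was not called (0.04 ± 0.21). The brightest Kcnmb4 probe did not change, while its second probe read -3.04 and -4.42 in colony cells, against -7.95 and -7.88 in control.

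Colony cells were set against the stimulated macrophages too. Against IL-4, 15 channel genes were higher and 33 lower (48 called, 64%), while 71.7% of all genes were called, 24.3% higher and 47.4% lower. Under normexp the split was 9 and 47, while 5688 of all genes were higher and 14454 lower. Against LPS, 15 were higher and 39 lower (54 called, 72%), while 76.5% of all genes were called, 26.8% higher and 49.7% lower. Without LPS replicate 2, 17 were higher and 36 lower. Scn3a was at least 228-fold lower in colony cells than with IL-4. Kcnd2 was at least 30-fold higher than with IL-4 and at least 27.6-fold higher than with LPS. Kcnk6 and Kcnk13 differed by -4.08 ± 0.07 and -3.56 ± 0.07 from IL-4 and by -3.22 ± 0.07 and -2.58 ± 0.07 from LPS. Kcnj10 was at least 97.4-fold lower than with IL-4 and at least 46.9-fold lower than with LPS. Kcnab1 was higher than with IL-4 (5.62 ± 0.19) and than with LPS (3.51 ± 0.19).

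Several dimmer genes were called only against stimulated cells or at the edge of detection. Kcnh7 (at least 3.88-fold), Kcnmb3 (at least 2.48-fold), Kcnh6 (at least 3.08-fold) and Kcnj5 (-1.73 ± 0.38) were lower in colony cells than with LPS. The Kcnh7 and Kcnmb3 calls were lost in 5 and 8 settings. Kcng2 was at least 1.57-fold lower than with IL-4, a call lost without IL-4 replicate 2 or either colony cell array. Kcnab3 was higher than with IL-4 (1.91 ± 0.39) and LPS (1.36 ± 0.39). Both calls were lost under normexp (0.23 against IL-4), and the second also without LPS replicate 1 or either colony cell array.

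**Figure D4:**
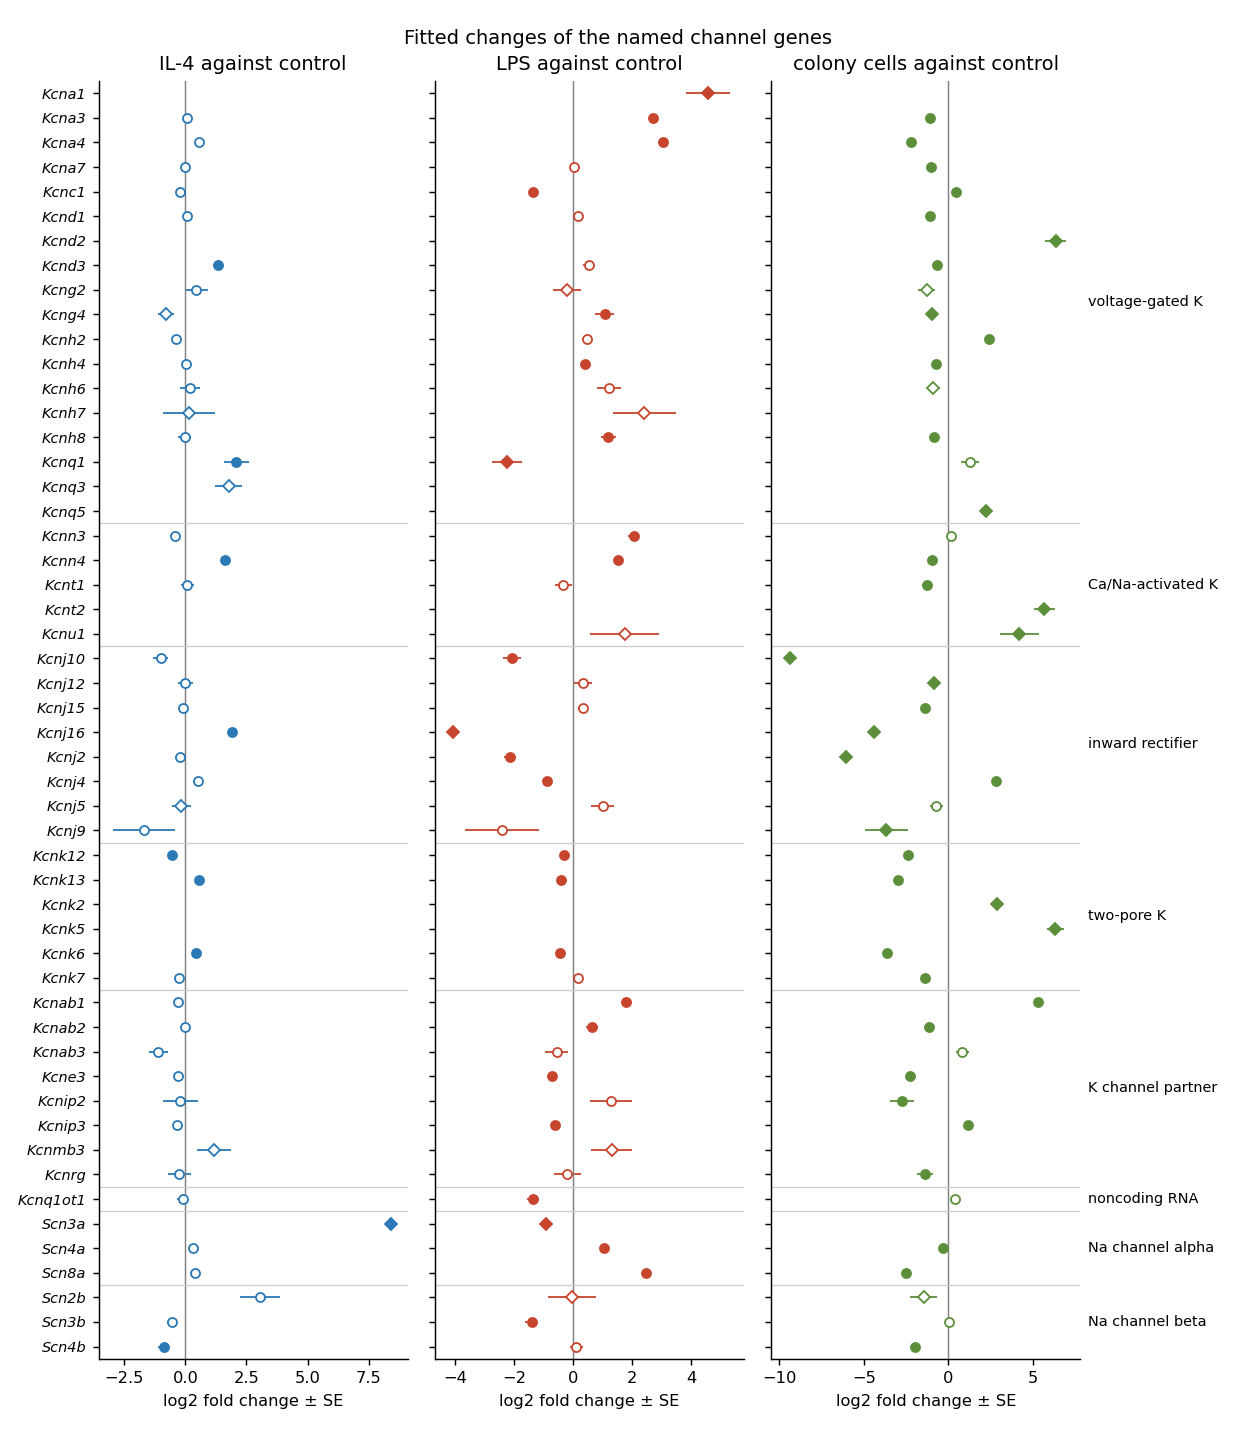
Fitted log2 fold changes with standard errors (horizontal axes, which differ in scale) of the named channel genes, by role, for IL-4, LPS and colony cells against the same control arrays. Filled symbols were called and open ones were not, diamonds had 1 of the groups at background so that their size is not a measured fold, and genes at background in both groups are left out; Scn3a lies farthest right with IL-4 and Kcnj10 farthest left in colony cells.

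Presence above background followed the groups. With any of its probes well above background on both arrays, 43 of the 75 genes were present in all 4 groups. There were 59 present with IL-4, 60 with LPS, 56 in colony cells and 58 in control. In colony cells only, 7 were present, among them Kcnd2, Kcnk2, Kcnk5, Kcnq5, Kcnt2 and Kcnu1. With IL-4 only there were 4 (Kcng2, Kcnq3, Scn2b and Scn3a), with LPS only 4 (Kcna1, Kcnh7, Kcnj5 and Kcnmb3) and in control only 0. At least 1 macrophage group, but not colony cells, held 19 genes, a count that includes those present with IL-4 only or LPS only. A gene that passed through 1 group alone had to be high there, so these counts describe the selection. Calls and bounds that set that group against the others carry the same selection. Among the 28 probes that passed through 1 group, the mean level in that group had a median of -4.52 and a lowest value of -5.79. Among the 21 probes above background on 1 array at most in every group, the highest group mean had a median of -6.28 and reached -5.58.

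**Figure D5:**
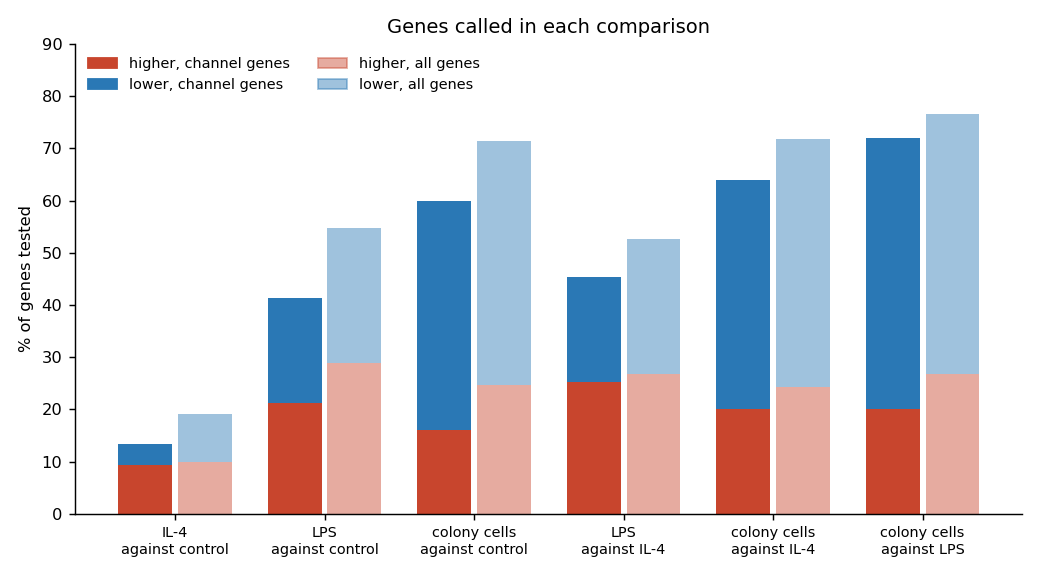
Bars give the percentage of genes called higher (red) and lower (blue) in each of the 6 comparisons, for the 75 channel genes (left, solid) and all 26504 genes tested (right, pale). In every comparison of this main setting the channel bar is the shorter one, 13.3% against 19.0% with IL-4 and 72% against 76.5% for colony cells against LPS. In some other settings the channel share was not lower. Under normexp, 61 of 75 channel genes and 21424 of 26504 genes were called for colony cells against control. For colony cells against LPS these counts were 58 and 20305 under normexp, and 55 and 18875 under median centring. For IL-4 against control, 10 of 61 channel genes and 2833 of 23287 genes were called in the deposited log2 values.

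On the probe that represents each gene, a group of 21 channel genes was never called with a 2-fold change. With IL-4 none was called, and their log2 fold changes lay between -0.55 and 0.64. With LPS 4 were called (among them Scn11a and Scn2a higher and Kcnh3 lower), between -0.53 and 0.91. In colony cells 4 were called, all lower (Kcna5, Kcna6, Kcnh3 and Kcnk4), between -0.79 and -0.25. Other probes of some of the 21 genes changed more, among them those of Scn2a and Kcnmb4 given above. In colony cells against control, the other Kcnj11 probe was lower (-2.12, limma adjusted p = 0.0244). The other Kcnk15 probe gave -2.97. Kcnma1, the large-conductance calcium-activated channel, was among those not called in any comparison, at -4.66 and -4.03 with IL-4, -4.27 and -4.20 with LPS and -4.52 and -5.79 in colony cells, against -4.29 and -4.72 in control. The 34 genes that did not pass the filter included Kcnn1, Kcnn2, Kcnj8, Kcna2, Scn9a and Scn10a.

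A list of 72 other ion transport genes (pumps, exchangers, chloride, calcium and TRP channels) gave a comparison outside the rule, with 61 genes tested. With IL-4, 10 rose and 18 fell (28 called, 45.9%), while 19.0% of all genes tested were called, and the median log2 fold change of the list was -0.15. Clic4, an intracellular chloride channel protein, rose (1.29 ± 0.13), and Trpm2, a cation channel opened by oxidants, fell (-1.67 ± 0.13), as did the endosomal sodium-proton exchanger Slc9a9 (-1.11 ± 0.12). With LPS, 15 rose and 26 fell (41 called, 67.2%, against 54.7% of all genes; median -0.30). The lysosomal channel Mcoln3 (-5.45 ± 0.14), the exchangers Slc9a9 (-4.37 ± 0.12) and Slc9a7 (-3.54 ± 0.07) and the calcium channel Cacna1a (-2.42 ± 0.06) had the largest changes, all falls. In colony cells, 16 were higher and 35 lower (51 called, 83.6%, against 71.4% of all genes; median -0.62). There Slc9a7 (-7.21 ± 0.07) and Mcoln3 (-6.89 ± 0.14) were lower and the calcium channel subunit Cacnb3 (5.34 ± 0.12) was higher. The sodium pump subunit Atp1b1 was well above background in colony cells only, at a mean level of 2.51.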

How the data were processed

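RNA was labelled with Cy3 and read on 8 arrays, all on 1 slide in 1 scan. The deposited scanner files hold spot signals as intensity, per the file headers made by Feature Extraction 10.7.3.1, background-subtracted and not scaled between arrays. Other deposited columns mark spots as well above background, saturated, uneven or outlying, per the file headers. A value table deposited by the authors is on the log2 scale and equals the log2 intensity minus a constant per array that is not given in the sources used here. Partek 6.4 and RMA are named, without a role, in the submitters' processing notes.

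Uneven and outlying spots were left out, log2 intensity was taken relative to the 75th percentile of each array, and spots of a probe were averaged. Probes were kept when well above background on both arrays of a group, and the probe with the highest mean represented a gene. Of the 75 channel genes 18 had more than 1 such probe. Names were updated from RefSeq through transcript, symbol or synonym (Scn2a1 became Scn2a); positions of probes were taken from the scanner files (mm9), with no annotation of exons or untranslated regions at hand. No member spot was saturated.

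limma 3.58.1 in R 4.3.3 fitted 1 model over 26504 genes and 8 arrays with 4 group means, 4 residual and 1.57 prior degrees of freedom. Benjamini-Hochberg adjustment ran over all of these genes, and those with an adjusted p under 0.05 were called. With 2 arrays a group, the smallest two-sided p of an exact permutation test is 0.333, so calls rest on variances shared across genes, and the number of arrays limits the precision. The fit was tested on simulated data. Genes at background in 1 group have only a lower bound of their fold, the other group's mean over the higher of the lowest signal well above background and the gene's own, and genes at background in both have none.

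The members, the list of other ion transport genes and the marker lists were chosen with earlier results of these data known. Genes are named with their levels when called with a 2-fold change in at least 1 of the 6 comparisons and above background on both arrays of the higher group, and some channel genes that are in the counts are not reported here; from the ion transport list, up to 4 called genes with the largest change are named per comparison, and smaller or uncalled members are named where a count singles them out, after their values were seen. Alternatives covered background correction, scaling, the deposited table, the filter, flagged spots, the probe, the variance model, the samples fitted and each array left out. Titles give replicate numbers 1 and 2, but deviations of same-numbered arrays from their group means correlated at only -0.16 to 0.05 across genes. The main fit did not pair samples by these numbers. Whether equal numbers share an animal or culture is not given in the labels, and these correlations cannot settle it.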

Additional observations from a re-analysis of the deposited data

How the results depend on the processing

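Of 156 changes that met the rule for naming genes, each recomputed in up to 19 settings, 123 kept their direction and their call throughout. Over 2870 such pairs, 2751 kept both, 113 lost the call and 6 reversed. Under normexp, Kcng4 was -0.05 with LPS, Kcnk2 -0.24 and Kcnq5 -0.41 in colony cells against control, and Kcnq5 -0.17 against IL-4. With the mean of all kept probes, Kcnd1 was 0.71 in colony cells against control and 1.01 against IL-4. Restricting the test to probes above background on all 8 arrays left 43 channel genes, of which 28, 30 and 33 were called in colony cells against control, IL-4 and LPS. Of all 21607 genes in that setting, 16530, 16598 and 17346 were called. Leaving out 1 array gave 6 to 11 calls for IL-4 against control (6 without either IL-4 array), 23 to 37 for LPS against control, 37 to 48 for colony cells against control, 25 to 38 for LPS against IL-4, 40 to 54 for colony cells against IL-4 and 44 to 57 for colony cells against LPS. With the replicate number as a block, the counts in the same order were 10, 32, 45, 37, 48 and 58 of 75 channel genes. Of all 26504 genes, 3861, 13714, 18536, 13162, 18518 and 19846 were called with that block. Normexp moved the median log2 fold change of all genes with LPS to -0.15, against 0.07 in the main setting. Slide as a block was not run because all arrays lie on 1 slide. Signals near the background, 2 arrays per group and the unstated origin of replicates limit what dim genes show; causes of the differences between settings were not tested.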
